A study of Mus musculus with 8 samples.

Results

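The genes described here are 9 genes of the megakaryocyte and platelet lineage, Pf4, Ppbp, Itga2b, Itgb3, Gp9, Gp1bb, Gp6, Treml1 and Fyb, taken by their symbols from a table of 53465 mouse genes. All 9 were present, and the question was whether the blood RNA of the mutant heart is erythroid only or also holds platelet lineage RNA. Heart ventricles were taken at embryonic day 9.5 (E9.5), and polyA RNA was sequenced as single reads of 60 bases from 4 wild-type (WT) samples and 4 mutant samples, called KO here. The mutant genotype is Nrg-1flox;Tie2-Cre, and the controls are labelled WT with no allele or Cre given. Nrg1 encodes neuregulin 1, a growth factor made by the endocardium, and "flox" marks an allele that Cre recombinase can delete. Tie2-Cre drives Cre from the promoter of Tek, which is active in endothelium and endocardium and also in blood cells and their precursors. Whether Nrg1 was deleted in the lineage studied here was not tested. The labels do not say whether a sample is 1 embryo or a pool, or whether littermates were used, so each p-value measures only the spread between these samples.

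Megakaryocytes are the cells that shed platelets, and they share a precursor and several transcription factors with erythroid cells. In the mouse embryo, primitive megakaryocytes arise in the yolk sac beside the primitive red cells and reach the heart with the first circulation. The lineage is recognized by its granule chemokines (Pf4, Ppbp), by its adhesion receptors for fibrinogen (Itga2b with Itgb3), von Willebrand factor (Gp9 and Gp1bb, with Gp1ba and Gp5) and collagen (Gp6), by the granule membrane receptor Treml1, and by the adaptor Fyb, which links receptor signals to integrins. Itga2b is also made by early blood progenitors, Itgb3 by endothelium and other cells, and Fyb by T cells and myeloid cells, and Pf4 is not limited to platelets either, since some macrophages make it.

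The promoters of the lineage are known for paired binding sites of GATA and ETS factors, and those of 3 genes are shown because these genes stand for the main patterns below: Pf4, whose level was carried by 1 mutant sample, Itga2b, which rose, and Fyb, which had the largest change. The sequences are from RefSeq on GRCm38.p6 and run 5′ to 3′ on the gene's strand, from 250 bases before the start of the RefSeq gene to 50 after it. For Itga2b and Fyb this start lies inside the longer gene model of the annotation used below. Capitals mark the searched words on either strand. For GATA factors these were AGATAA with its variant TGATAA in the first letter, and AGATAG with the corresponding variant TGATAG. For ETS factors they were AGGAAG with its variant CGGAAG. Pf4 is on the plus strand (chr5:90772185-90772484), Itga2b on the minus strand (chr11:102469834-102470133) and Fyb on the plus strand (chr15:6579597-6579896).
Pf4: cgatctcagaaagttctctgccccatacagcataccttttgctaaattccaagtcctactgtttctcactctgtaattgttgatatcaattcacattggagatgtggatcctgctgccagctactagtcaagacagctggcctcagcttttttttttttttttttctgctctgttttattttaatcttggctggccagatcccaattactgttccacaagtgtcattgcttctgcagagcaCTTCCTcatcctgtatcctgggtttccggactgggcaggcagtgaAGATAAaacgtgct
Itga2b: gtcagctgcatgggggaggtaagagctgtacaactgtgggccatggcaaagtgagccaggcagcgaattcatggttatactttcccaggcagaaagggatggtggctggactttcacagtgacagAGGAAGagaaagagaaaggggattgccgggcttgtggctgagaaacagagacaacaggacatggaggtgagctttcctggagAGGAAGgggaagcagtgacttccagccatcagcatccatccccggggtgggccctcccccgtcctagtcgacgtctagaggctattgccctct
Fyb: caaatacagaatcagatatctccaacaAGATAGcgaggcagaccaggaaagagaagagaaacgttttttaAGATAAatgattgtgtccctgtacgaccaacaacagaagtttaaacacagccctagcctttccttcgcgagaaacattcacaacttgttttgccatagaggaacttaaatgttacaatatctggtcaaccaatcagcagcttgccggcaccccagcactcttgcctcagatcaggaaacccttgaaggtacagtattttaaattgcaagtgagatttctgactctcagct
Pf4 had an ETS word starting at -9 and a GATA word at +37, Itga2b had ETS words at -125 and -43, and Fyb had GATA words at -223 and -180. Of the 9 genes, 8 had an entry in the RefSeq table, and Itgb3 had none. A GATA word was present in 4 of these 8 promoters against 29.8% of all 32851 promoters of this length, an ETS word in 4 of 8 against 46.5%, and both in 2 of 8 (Pf4 and Gp1bb) against 12.6%. Such a match is a description of letters and not a binding site.

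On GRCm38 the 9 genes are all annotated as protein-coding and lie on 7 chromosomes. Pf4 (chr5:90772435-90773383) and Ppbp (chr5:90768518-90770063) are neighbours. Itga2b (chr11:102453297-102470122) and Itgb3 (chr11:104608000-104670476) are on the same chromosome. Gp9 is at chr6:87778072-87779768, Gp1bb at chr16:18620317-18622403, Gp6 at chr7:4363965-4397744, Treml1 at chr17:48359916-48367176 and Fyb at chr15:6522853-6663313. The estimates of Gp1bb and Fyb carry a further uncertainty. Of the 60-base windows of the Gp1bb transcripts, 88.4% also occur in transcripts of Sept5, the septin gene that overlaps it on the same strand. For Fyb, 9.06% of windows occur in other genes. Nearly all of these are in Phb (5.21%), Gm2245 (3.85%), which lies antisense to Fyb and had at most 1 count in any sample, and Gm7666 (3.2%), a pseudogene inside Fyb. The counting had to divide such reads. No window was shared for Pf4, Ppbp, Itga2b, Itgb3, Gp9 or Treml1, and 0.237% of windows were shared for Gp6.

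The deposited totals were 12430368 to 14223860 counts in KO and 11852372 to 14360323 in WT. Nrg1, the targeted gene, had 61, 59, 71 and 72 counts in KO replicates 1 to 4 and 156, 131, 121 and 173 in WT replicates 1 to 4, and it fell in KO (log2 fold change -1.07, SE 0.14, adjusted p = 0.00268 in the quasi-likelihood test of edgeR, corrected over 14451 genes by the Benjamini-Hochberg method). Cardiomyocyte markers were abundant in every sample (most of all Myh7, a myosin heavy chain, at a log2 fold change of 0.09, and Actc1, cardiac actin, also at 0.09), and 0 of 12 changed by the edgeR test, with 2 lower and 0 higher at an unadjusted p under 0.05 (backgrounds 11.9% and 13.1%). With KO replicate 1 left out, 2 of the 12 rose and 1 fell (backgrounds 9.35% and 7.89%). In the same fit 1245 genes changed, 739 higher and 506 lower in KO. KO replicate 1 stood apart: its globin share was the highest of all samples at 6.26%, against 1.93% for the lowest KO sample and 0.671 to 0.799% in WT. It was the highest KO sample for 8 of the 9 genes, while this held for 37.5% of all genes tested. WT replicate 2 was the highest WT sample for 9 of 9 genes, against 29.1% of all genes tested, and both held for 8 of 9, against 9.96%. The results on the 9 genes and list counts are therefore also given without KO replicate 1, and some without both samples.

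All 9 platelet genes had a higher mean in KO than in WT, and 3 of them, Itga2b, Gp9 and Fyb, rose past the threshold, against a background of 5.11% of genes tested that were higher. None of the 9 fell, against 3.5% of genes tested. The median log2 fold change of the 9 genes was 1.31, beside -0.0014 over all genes tested. Gp6 entered the fit only through its KO samples. Among the other 8 genes the median was 1.27, and 7 of 8 were higher at an unadjusted p under 0.05, against 13.1% of genes tested. In 4 of 9 genes, Itga2b, Gp9, Gp1bb and Fyb, every KO sample was above every WT sample, which held for 9.52% of genes tested. Without KO replicate 1, again 3 of 9 rose (background 9.35%), and of the 8 genes other than Gp6, 7 were above 0 (background 48.5%) with a median of 0.624. When any 1 of KO replicates 3 and 4 and WT replicates 1 to 4 was left out, the count was 1 of 9, Fyb. The genes higher over the whole table were also fewer in those fits. They were 335 to 487 of 14543 to 14645 tested, against 739 of 14451 with all samples. Without KO replicate 1 and WT replicate 2, 5 of 9 rose (Itga2b, Itgb3, Gp9, Treml1 and Fyb, background 8.37%) and the median of the 8 genes was 0.856. These samples were chosen after their values were seen. WT replicate 2 was the highest WT sample for all 9 genes, so leaving it out raises their differences by construction, and the added calls are no further evidence. In bulk tissue, more cells of a type and more RNA per cell cannot be told apart.

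**Figure D1:**
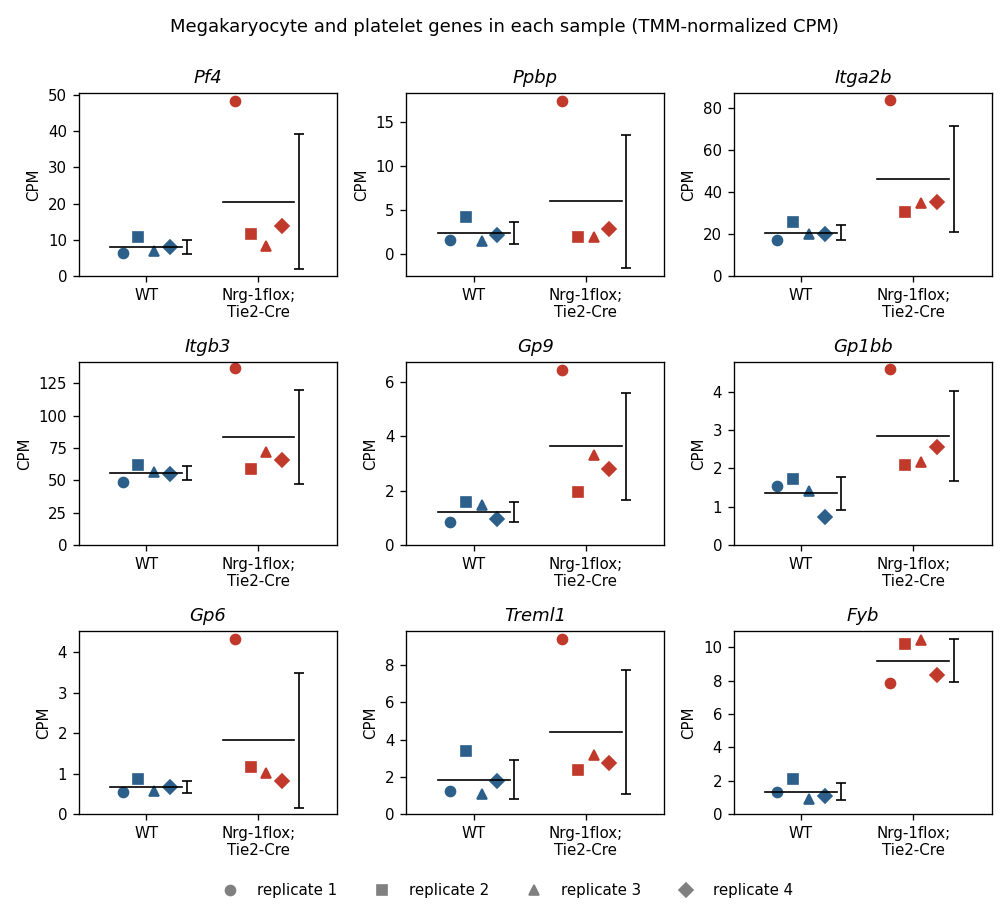
CPM (TMM-normalized counts scaled to 1000000 per sample, vertical axes) of each of the 9 genes in the 4 WT samples (blue) and the 4 Nrg-1flox;Tie2-Cre samples (red). Marker shapes give the replicate number, horizontal lines the group mean and bars the SD (n = 4). KO replicate 1 is the top red point in every panel except Fyb, where it is the lowest of the KO samples at 7.89 CPM.

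The means of the alpha granule chemokines rested on 1 KO sample. CPM is the count scaled to 1000000 per sample after TMM normalization. Pf4, platelet factor 4, had the highest level per length of the 9 genes, 11.2 CPM per kilobase of exon in WT and 28.4 in KO. Its CPM was 6.34, 10.9, 6.82 and 8.11 in WT replicates 1 to 4 and 48.2, 11.5, 8.34 and 13.9 in KO replicates 1 to 4. One KO sample was far above all others and the other 3 lay close to or within the WT range, with KO replicate 3 below WT replicate 2. The means were 20.5 ± 18.6 in KO and 8.04 ± 2.04 in WT (SD, n = 4), and the log2 fold change of 1.34 (SE 0.51) did not pass the edgeR test (adjusted p = 0.137). Without KO replicate 1 it was 0.48 (edgeR adjusted p = 0.152).

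Ppbp, the precursor of the neutrophil-attracting chemokine of platelets, showed the strongest dependence on 1 sample. Its CPM was 1.60, 4.23, 1.48 and 2.16 in WT and 17.4, 1.95, 1.87 and 2.80 in KO, in replicate order. KO replicate 1 was 8.89 times the median of the other KO samples, and those 3 samples lay inside the WT range. The log2 fold change was 1.31 (SE 0.74, edgeR adjusted p = 0.307) with all samples and -0.12 (edgeR adjusted p = 0.863) without KO replicate 1. It was 0.32 without KO replicate 1 and WT replicate 2, the highest sample of each group (edgeR adjusted p = 0.466), so the sign depended on which of these samples were kept.

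Of the subunits of the fibrinogen receptor, Itga2b rose and Itgb3 did not pass the test, and the difference between them was not tested. Itga2b, the alpha IIb (CD41) chain that pairs with the beta 3 chain, had 17.0, 25.7, 20.1 and 20.2 CPM in WT and 83.9, 30.6, 34.8 and 35.1 CPM in KO. Every KO sample was above every WT sample, and the other 3 KO samples were close to each other. Itga2b rose, from 20.8 ± 3.62 to 46.1 ± 25.3 CPM (SD, n = 4), with a log2 fold change of 1.15 (SE 0.31, edgeR adjusted p = 0.0478). Without KO replicate 1 the change was smaller, 0.69 (edgeR adjusted p = 0.00398). The call was lost when KO replicate 3 or 4, or any WT replicate, was left out (edgeR adjusted p = 0.0587 to 0.139).

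Itgb3, the beta 3 chain, which in other cells pairs with the alpha v chain, had 49.0, 61.7, 56.9 and 54.8 CPM in WT and 137, 58.6, 72.1 and 66.0 CPM in KO. The groups overlapped, since KO replicate 2 was below WT replicate 2. The log2 fold change of Itgb3 was 0.58 (SE 0.24, edgeR adjusted p = 0.161) and 0.24 without KO replicate 1 (edgeR adjusted p = 0.0863). It was the smallest change among the 9 genes with all samples. Per length, Itgb3 was above its partner in both groups, 9.42 against 3.81 CPM per kilobase in WT and 14.1 against 8.45 in KO.

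Of the receptor for von Willebrand factor, Gp9 (glycoprotein IX) rose. Its CPM was 0.840, 1.58, 1.48 and 0.946 in WT and 6.44, 1.95, 3.31 and 2.80 in KO. The groups did not overlap, although KO replicate 2 was close to the highest WT sample. Gp9 went from 1.21 ± 0.371 to 3.63 ± 1.96 CPM (SD, n = 4), a log2 fold change of 1.57 (SE 0.39, edgeR adjusted p = 0.0357), and it was 1.15 without KO replicate 1 (edgeR adjusted p = 0.0251). These values rest on 11 to 76 counts per sample, and the call was lost when KO replicate 3 or 4, or any WT replicate, was left out (edgeR adjusted p = 0.06 to 0.113).

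Gp1bb, glycoprotein Ib beta, had 1.53, 1.72, 1.40 and 0.744 CPM in WT and 4.58, 2.10, 2.16 and 2.56 CPM in KO. All KO samples were above all WT samples. The log2 fold change was 1.07 (SE 0.34) and did not pass the edgeR test (adjusted p = 0.081), nor did the 0.75 without KO replicate 1 (edgeR adjusted p = 0.101). Sept5, which shares most of the Gp1bb sequence, had a log2 fold change of -0.03 (edgeR adjusted p = 0.95), with 40, 68, 44 and 55 counts in KO and 52, 48, 66 and 53 in WT. The part of read sharing in the Gp1bb values was not tested.

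The collagen receptor Gp6 was the least abundant of the 9 genes per length, at 0.112 CPM per kilobase in WT and 0.310 in KO. Its CPM was 0.535, 0.860, 0.575 and 0.676 in WT and 4.32, 1.16, 1.01 and 0.824 in KO, from 7 to 12 counts per WT sample. KO replicate 1 was again far above the rest, and KO replicate 4 was below WT replicate 2. The log2 fold change was 1.43 (SE 0.56, edgeR adjusted p = 0.146) and 0.58 without KO replicate 1 (edgeR adjusted p = 0.23). Gp6 met the abundance filter through its KO samples, as only 1 WT sample reached the minimum of 0.755 CPM, so its difference adds nothing to the counts of higher genes. This minimum applies to CPM before TMM scaling, and on that scale the other 8 genes reached it in all 8 samples.

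Treml1, a receptor of the alpha granule membrane that is brought to the surface on activation, had 1.22, 3.37, 1.07 and 1.76 CPM in WT and 9.41, 2.39, 3.16 and 2.72 CPM in KO. WT replicate 2 was above 3 of the 4 KO samples, so the groups overlapped. The log2 fold change was 1.23 (SE 0.51, edgeR adjusted p = 0.171). It was 0.56 without KO replicate 1 (edgeR adjusted p = 0.321) and 1.01 without both deviating samples, where it passed the threshold (edgeR adjusted p = 0.0346). Leaving out WT replicate 2, the highest WT sample, raises this difference by construction.

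Fyb behaved unlike the other 8 genes. Its CPM was 1.3, 2.08, 0.904 and 1.08 in WT and 7.89, 10.2, 10.4 and 8.32 in KO. The groups were far apart, and KO replicate 1, the highest KO sample for the others, was the lowest for Fyb. Fyb rose from 1.34 ± 0.517 to 9.21 ± 1.29 CPM (SD, n = 4), a log2 fold change of 2.77 (SE 0.24, edgeR adjusted p = 0.00119), and 2.83 without KO replicate 1 (edgeR adjusted p = 0.000146). It passed in 8 of 8 fits that left out 1 sample.

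The Fyb estimate was fractional in 8 of 8 samples, whereas the counts of Pf4, Ppbp, Itga2b, Itgb3, Gp9 and Treml1 were whole in 8 of 8 (within 1e-09). Fractional values arise where the counting divides reads between genes. Phb, prohibitin, had 2025, 2733, 2969 and 2568 counts in KO and 2595, 3017, 2288 and 2926 in WT (log2 fold change -0.01, edgeR adjusted p = 0.956). Gm7666 had 340, 654, 646 and 562 counts in KO and 337, 456, 356 and 506 in WT (log2 fold change 0.47, edgeR adjusted p = 0.0935), and KO replicate 1 was its lowest KO sample, as for Fyb. Without KO replicate 1, Gm7666 rose too (0.61, edgeR adjusted p = 0.0014). Fyb itself had 93, 141, 145 and 101 counts in KO and 17, 29, 11 and 16 in WT. The part of these shared reads in the Fyb difference was not tested. Leaving out Fyb, and Gp6 for its passage through the filter, 2 of 7 genes rose (background 5.11%) and the median log2 fold change was 1.23.

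**Figure D2:**
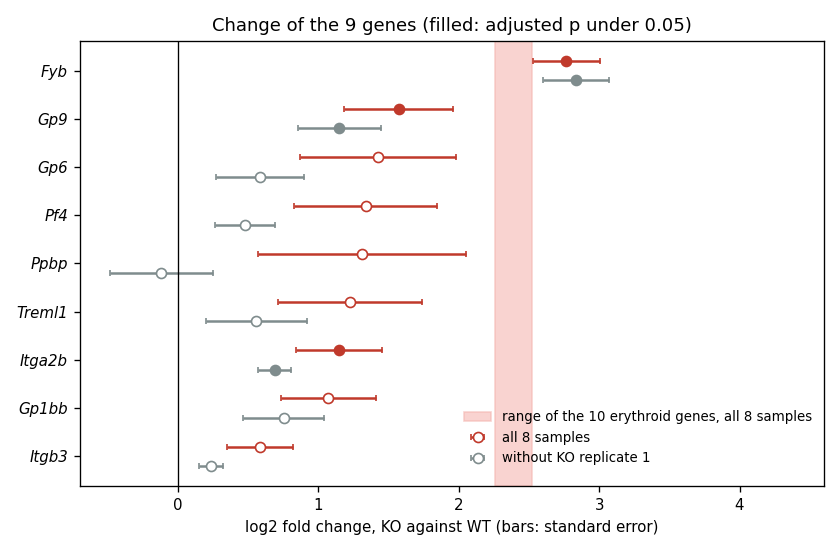
Log2 fold change of KO against WT (horizontal axis) for each gene with all 8 samples (red) and without KO replicate 1 (grey). Bars are standard errors, and filled points have an edgeR adjusted p under 0.05. The shaded band spans the 10 erythroid genes (2.26 to 2.52), and every gene except Fyb lies below it.

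The erythroid genes gave the scale against which the platelet genes were read. All 10 erythroid genes of the list rose (among them Rhag, an ammonium transporter of the red cell membrane, with 2.52, and Alas2, the first enzyme of haem synthesis in red cells, with 2.44; edgeR adjusted p = 0.00307 and 0.00185), with a median log2 fold change of 2.36, and 7 of 7 globin genes tested rose with a median of 2.5 (background 5.11%). The geometric mean of the 10 erythroid genes was 20.1, 24.3, 21.0 and 19.6 CPM in WT and 157.5, 56.3, 106.8 and 116.5 CPM in KO. The summed level of the 7 platelet genes without Fyb and Gp1bb was 76.6, 108.3, 88.3 and 88.7 CPM in WT and 306.7, 108.2, 124.6 and 124.2 CPM in KO. KO replicate 2 was at the level of the highest WT sample for the platelet sum, whereas for the erythroid level it was well above every WT sample. The ratio of the KO mean to the WT mean was 1.83 for the platelet sum and 5.15 for the erythroid level, and without KO replicate 1 it was 1.32 and 4.39. Itgb3 alone made up 56.9 to 64.4% of this sum in WT. The sum of the other 6 genes, computed after seeing the data, had a ratio of 2.36, or 1.53 without KO replicate 1. The geometric mean of the 7 genes, the same kind of mean as the erythroid level, had 2.34 and 1.44.

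Each gene was then tested against the erythroid level itself, with the library scaling replaced by the geometric mean count of the erythroid list. On that scale 6 of 9 platelet genes were lower in KO and none was higher, against a background of 98.5% of all genes tested that were lower, so a lower value here says only that a gene did not keep pace with the erythroid genes. The differences were -1.73 for Itgb3, -1.22 for Gp1bb, -1.21 for Ppbp, -1.19 for Itga2b, -1.14 for Treml1 and -1.09 for Pf4 (edgeR adjusted p = 0.0129 or less). Gp6 (-0.95, edgeR adjusted p = 0.0769) and Gp9 (-0.79, edgeR adjusted p = 0.104) did not pass. Fyb was at 0.67 (edgeR adjusted p = 0.138). Without KO replicate 1, Gp6 was also lower (-1.39, edgeR adjusted p = 0.0117) and Fyb was higher (0.89, edgeR adjusted p = 0.0355). Without KO replicate 3, 3 of the 9 genes passed, and the share of all genes in that fit was not counted.

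A single scaling value per sample enters all these tests, so they are not independent of each other. Per sample, the ratio of the platelet sum to the erythroid level was 3.82, 4.46, 4.20 and 4.53 in WT and 1.95, 1.92, 1.17 and 1.07 in KO. Every KO sample was below every WT sample. The same held for the ratio of 95.7% of all genes tested to the erythroid level, and so for unchanged genes too. KO replicate 1, high for both lineages, was beside KO replicate 2 on this ratio.

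**Figure D3:**
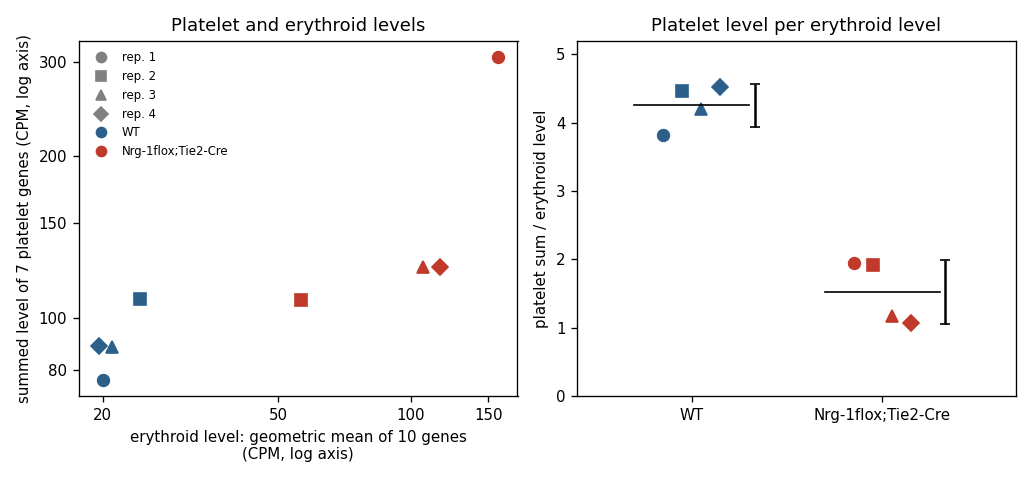
Left, the summed CPM of 7 platelet genes (Fyb and Gp1bb left out, vertical log axis) against the geometric mean CPM of 10 erythroid genes (horizontal log axis) in each of the 8 samples. Right, the ratio of these measures per sample with the group mean and SD (n = 4), which was 4.25 ± 0.32 in WT and 1.53 ± 0.474 in KO.

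The rest of the platelet lineage was read from a list of 39 further genes, 36 of which passed the abundance filter (P2ry12, Selp and Fcer1g did not). By the edgeR test 0 of 36 changed. Of the 36, 5 did not reach the filter's minimum in every WT sample and are left out of the next counts (F13a1, Srgn, Rgs18, Tbxas1 and Mpig6b, named for that reason). Of the other 31, 17 were higher and 0 lower at an unadjusted p under 0.05 (backgrounds 13.1% and 11.9%), 27 were above 0 (background 49.7%) and the median log2 fold change was 0.670. In 10 of 31 all KO samples were above all WT samples (background 9.52%). Without the abundance filter, edgeR called 5 of 39 higher (background 2.57%, 730 of 28458) and DESeq2, also run without it, 9 of 39 (background 3.57%, 1016 of 28458). These backgrounds include genes below the filter, which 14451 genes passed, whereas 36 of the 39 passed it. Genes without a DESeq2 adjusted p count there as not called. The shares are therefore not like for like.

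By function, and over the same 31 genes, the median was 0.807 over 11 surface receptors, 0.486 over 6 granule and secreted proteins, 0.751 over 10 adaptor and signalling proteins and 0.610 over 4 genes of the cytoskeleton and of prostanoid synthesis. Over all 36 genes, in the same order, the medians were 0.763, 0.664, 1.13 and 1.17. Without KO replicate 1 these fell to 0.429, 0.214, 0.429 and 0.324. The examples in this paragraph were chosen after their values were seen. Bin2, a BAR domain protein of blood cells, had the largest difference of the 36 (1.64, edgeR adjusted p = 0.0674). Vav1, an exchange factor below the collagen receptor, was at 1.33 (edgeR adjusted p = 0.0552), and Fermt3, kindlin 3, which activates integrins, was at 1.13 (edgeR adjusted p = 0.069). Tubb1, the beta 1 tubulin of platelets, was at 1.23 (edgeR adjusted p = 0.091). Of the other chains of the von Willebrand factor receptor, Gp5 was at 1.02 (edgeR adjusted p = 0.0653) and Gp1ba at 0.81 (edgeR adjusted p = 0.0679). The most abundant genes of this list by WT mean CPM were Thbs1, thrombospondin 1 (0.69, edgeR adjusted p = 0.175), and Myl9, a myosin light chain also made by smooth muscle (-0.02, edgeR adjusted p = 0.953).

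KO replicate 1 was the highest KO sample for 32 of these 36 genes and WT replicate 2 the highest WT sample for 20. Without KO replicate 1, 7 of 36 rose and 1 fell by the edgeR test (backgrounds 9.35% and 7.89%), and the median was 0.345. Those that rose, and the 1 that fell, are named after their values were seen. Those that rose were Bin2, Vav1, Fermt3, Tubb1, Gp1ba, P2ry1 and Myl9. The 1 that fell was Cd9, a tetraspanin made by many cell types (-0.33, edgeR adjusted p = 0.0251). Without KO replicate 2, which had the lowest erythroid level in KO, 6 of the list rose (background 6.26%).

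**Figure D4:**
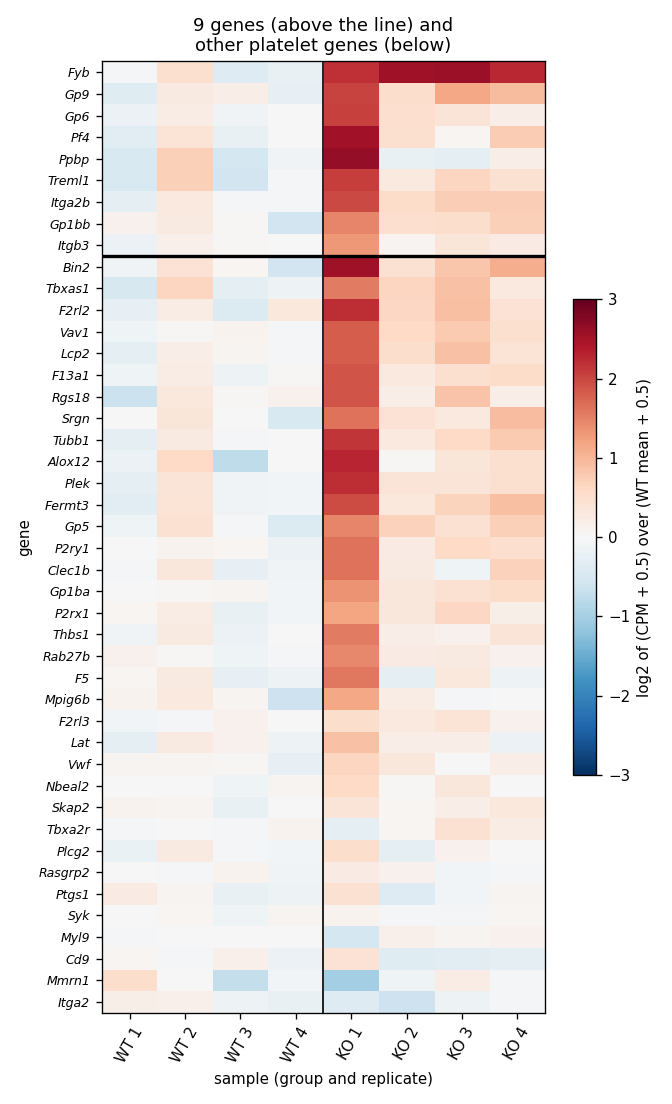
Log2 of each sample's CPM + 0.5 over the WT mean + 0.5 (colour) for the 9 genes above the line and 35 of the 36 further platelet genes below it, with samples in columns and genes in rows. The column of KO replicate 1 is the reddest for nearly all genes but not for Fyb, and the other KO columns are paler.

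Of 12 transcription factors of blood cells, most of them shared by megakaryocytes and erythroid cells, 6 rose and 1 fell (backgrounds 5.11% and 3.5%). Gata1, the master regulator of both lineages, had 8.33, 9.10, 9.37 and 8.58 CPM in WT and 58.7, 22.3, 43.7 and 45.7 in KO, with no overlap (log2 fold change 2.26, edgeR adjusted p = 0.00177). Nfe2, needed for platelet release, was at 2.23 (edgeR adjusted p = 0.00342), Gfi1b, a repressor in both lineages, at 2.10 (edgeR adjusted p = 0.00185) and Tal1, needed for the first blood cells, at 1.64 (edgeR adjusted p = 0.00303). The other 3 that passed are named after their values were seen. Zfpm1, the GATA1 cofactor FOG1, rose by 1.01 and Ldb1, a bridging cofactor, by 0.55 (edgeR adjusted p = 0.00282 and 0.00224). Meis1 fell by 0.31 on the log2 scale (edgeR adjusted p = 0.0085). The counts were again 6 and 1 without KO replicate 1 (backgrounds 9.35% and 7.89%), with Gata1 at 2.07.

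Both factors named next are known for roles in megakaryocytes, and they were chosen after their values were seen. Runx1 was at 1.53 (edgeR adjusted p = 0.0573), and its call depended on the setting. It was called higher by edgeR without the abundance filter (adjusted p = 0.0247) and with a filter of 10 counts in every sample (0.0496), and by DESeq2 (0.00969). With 1 sample left out it passed only without KO replicate 2 (edgeR adjusted p = 0.0247, against 0.0563 to 0.157 in the others), and with the replicate block it did not pass (edgeR adjusted p = 0.125). Fli1, an ETS factor that is also made by endothelium, was at -0.01 (edgeR adjusted p = 0.956). Its CPM was 15.0, 14.1, 13.4 and 16.9 in WT and 17.5, 14.1, 14.0 and 13.4 in KO, so the groups overlapped throughout.

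Some of the 9 genes are also made by macrophages, so a list of 16 macrophage genes is given beside them. Only 7 passed the abundance filter, and 2 rose (background 5.11%), Csf1r, the receptor for macrophage colony-stimulating factor (1.08, edgeR adjusted p = 0.00657), and Coro1a, a coronin of leukocytes (1.49, edgeR adjusted p = 0.0217). The Coro1a call was lost without WT replicate 1, 3 or 4 (edgeR adjusted p = 0.0591 to 0.0752). Lyz2, lysozyme and the most abundant of the 7 by WT mean CPM, was at -0.31 (edgeR adjusted p = 0.304). When KO replicate 1 was left out, 3 of 7 rose (background 9.35%), with Csf1r at 0.93, Coro1a at 1.11 and Laptm5, a lysosomal protein of blood cells, at 0.61 (edgeR adjusted p = 0.0342). Lyz2, Laptm5 and Aif1 were chosen after their values were seen. The summed level of the 16 genes was 26.5 to 36.4 CPM in WT and 38.5 to 62.6 in KO, without overlap. Of single genes tested, 9.52% had all KO samples above all WT samples. Aif1, below the filter and not tested, had 0 counts in all 4 WT samples and only 3, 3, 2 and 1 in KO. Csf1r was at 2.52, 2.94, 2.79 and 2.50 CPM in WT and 7.38, 4.63, 5.25 and 5.52 in KO. The part of macrophage RNA in the values of Pf4, Itgb3 and Fyb was not tested.

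Of 8 progenitor genes, 6 passed the filter and 1 changed, Mecom, which fell (-0.37, edgeR adjusted p = 0.0476, background 3.5%). This call was lost without any 1 of KO replicates 2 and 3 and WT replicates 1 to 4 (edgeR adjusted p = 0.0591 to 0.14). Cd93 and Cd34, the most abundant of the list by WT mean CPM, were at -0.20 and -0.10 (edgeR adjusted p = 0.469 and 0.571). In the fit lacking KO replicate 1, 2 of 6 fell (background 7.89%), Mecom (-0.30) and Cd93 (-0.39, edgeR adjusted p = 0.00625). Of 12 endothelial genes 1 changed, Tek, the gene whose promoter drives Cre here, which fell (-0.34, edgeR adjusted p = 0.031, background 3.5%), with 5 of 12 lower at an unadjusted p under 0.05 (background 11.9%). Kdr, a receptor for vascular endothelial growth factor, and Cdh5, the cadherin of endothelial junctions, the most abundant of the list by WT mean CPM, were at -0.38 and -0.14 (edgeR adjusted p = 0.0681 and 0.169). With KO replicate 1 left out, 2 of 12 fell (background 7.89%), Tek (-0.28) and Kdr (-0.51, edgeR adjusted p = 0.00162). The summed endothelial level was 1177 to 1267 CPM in WT and 1068 to 1147 in KO. The Tek call was lost without KO replicate 3 or 4 or any WT replicate (edgeR adjusted p = 0.0553 to 0.107).

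**Figure D5:**
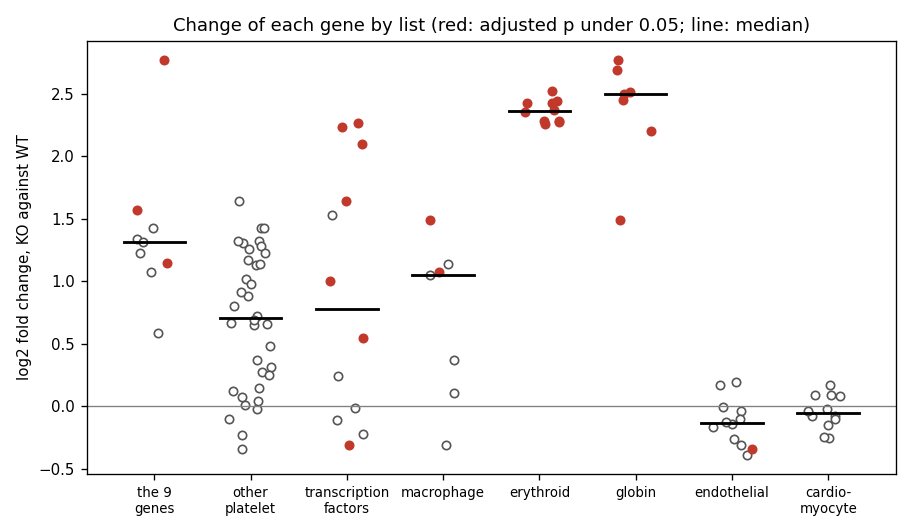
Log2 fold change of KO against WT (vertical axis) for each tested gene, by list (horizontal axis). Red points have an edgeR adjusted p under 0.05 and lines mark the list median, which was 2.36 for the erythroid genes. It was 1.31 for the 9 genes and 0.707 for the other platelet genes, or 1.27 and 0.670 without those that did not reach the filter's minimum in every WT sample.

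Across the 8 samples, the genes whose log2 CPM was most like that of Pf4 were Thbs1 (Pearson r = 0.992), Eif3e, a translation initiation subunit (0.984), Clybl (0.983), Plek, pleckstrin of platelets and leukocytes (0.981) and Cyp26b1 (0.977). For Itga2b they were Usp25 (0.989), Tubb1 (0.988), Snrnp200 (0.987), Fermt3 (0.987) and F13a1, the A chain of clotting factor XIII (0.986). Genes of the platelet lists and genes outside them stood side by side here. These values describe 8 samples in which KO replicate 1 is common to all. Over the other 7 samples r with Pf4 ran from 0.855 for Cyp26b1 to 0.961 for Thbs1. With Itga2b it ran from 0.959 for Fermt3 to 0.969 for Usp25. Among the 9 genes, r with Pf4 ran from 0.548 for Fyb to 0.954 for Gp6, and without KO replicate 1 from 0.559 for Itgb3 to 0.783 for Itga2b. For Itga2b it ran from 0.735 for Fyb to 0.963 for Itgb3, and without KO replicate 1 from 0.371 for Ppbp to 0.946 for Gp9.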

How the data were processed

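PolyA RNA libraries (NEBNext Ultra, a kit that does not mark strand) of E9.5 heart ventricles were sequenced on a HiSeq2500. Per the submitters' processing notes, the authors used cutadapt and RSEM 1.3.1 with GRCm38, and deposited expected counts per gene (Ensembl 91 identifiers), of which 16% were not whole. RSEM divides reads that fit several genes between them, which bears on Fyb and Gp1bb. The expected counts of the 8 samples were rounded here to whole numbers. Genes were kept by filterByExpr, scaled by TMM and tested with the quasi-likelihood test of edgeR 4.0.16 in R 4.3.3 (threshold 0.05 after Benjamini-Hochberg adjustment, standard error as the log2 fold change over the square root of F). All 8 samples entered the fit, with no covariate. DESeq2 1.42.0 served as an alternative, with other scalings, filters, a replicate block and fits that left out samples. Fits were tested on simulated data. Shared 60-base windows were counted in GENCODE M21 transcripts. Genes named in the text were taken from a rule, the 9 genes, the 4 largest changes past the threshold in each other list or its 2 most abundant genes by WT mean CPM where fewer than 2 passed, Nrg1, Sept5, and the 5 genes most correlated with Pf4 and Itga2b. Genes outside the rule are marked as chosen after their values were seen, or are there for shared sequence or for the abundance filter. A single gene of the wider platelet list is counted but not reported here by name. The 9 genes and the lists were chosen with earlier results of these data known. Totals of 11852372 to 14360323 counts per sample leave Gp6 with as few as 7 counts.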

Additional observations from a re-analysis of the deposited data

Results flagged for a closer look

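Values far from the rest of their group of 4 were found in 9 of 132 groups examined, where chance gives about 6.6 for independent groups. The groups are not independent. Some genes were included for their likeness to Pf4 or Itga2b or after their values were seen, so the chance figure is only a rough guide. Of these, 7 were KO replicate 1. The measure is the gap between the extreme sample and its nearest neighbour as a share of the group's range on the log2 CPM scale. The mean log2 CPM of the 9 platelet genes was 4.07 in KO replicate 1, with a gap of 0.903 of the range of the KO group. Itga2b (gap 0.864), Plek (0.948), Cd9 (0.883) and Clybl (0.861) were also highest in KO replicate 1, whereas Myl9 (0.892) and Gm7666 (0.956) were lowest in it. In WT, replicate 2 was the highest for the mean of the 9 genes (2.32, gap 0.861) and for the mean of the wider platelet list (2.54, gap 0.868). KO replicate 1 and WT replicate 2 were each the highest of their group for 8 of the 9 genes, while this held for 9.96% of all genes tested. KO replicate 1 also had the highest globin share, 6.26%.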

How the results depend on the processing

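The 3 calls among the 9 genes were also made with DESeq2, upper-quartile scaling, no abundance filter, a filter of 10 counts in every sample, and without hemoglobin and mitochondrial genes. Leaving out 1 sample gave 1 to 3 calls, and leaving out KO replicate 1 and WT replicate 2, chosen after seeing the data, gave 5. Over all genes the count was 509 to 2523 with 1 sample left out and 2132 with both left out. The labels do not say whether the replicate numbers pair the samples. Deviations of same-numbered samples had correlations of -0.0911 to 0.0187, which cannot exclude a pairing. With the replicate block 616 genes and 1 of the 9, Fyb, passed (Itga2b adjusted p = 0.111 and Gp9 0.0998 by edgeR). The wider platelet list gave 9 with DESeq2, 5 without a filter, 1 with the filter of 10 counts, 7 without both samples and 0 to 8 with 1 sample left out. With 1 sample left out the macrophage list gave 1 to 4, the factors 7 to 9 and the erythroid list 10 to 10, beside the 509 to 2523 over all genes. The 9 genes against the erythroid level gave 3 to 8 in such fits, where the share of all genes was not counted. Direction changed with 1 sample left out for Ppbp (-0.118 to 1.75, and 0.32 without both), Myl9 (-0.0695 to 0.117, and 0.115 without both), Myh7 (-0.0220 to 0.187), Sept5 (-0.139 to 0.128), Fli1 (-0.104 to 0.0536, and -0.130 without both) and Phb (-0.0460 to 0.0544, and 0.0938 without both). The cause was not tested. Of 438 other comparisons of single genes, 390 kept direction and side of the threshold, 6 lost it, 40 gained it and 2 changed direction. Gp6, Gp1bb, Gp9 and Fyb rest on low counts in WT.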
